A study of Homo sapiens with 12 samples.

Results

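Metallothioneins are small cysteine-rich proteins that bind zinc and copper in the cytoplasm. The transcripts described here were those of MT2A, MT1E, MT1X, MT1F, MT1G and MT1M, together with MTF1, which encodes the transcription factor that senses zinc and acts on metallothionein promoters. The 7 genes were taken by symbol from tables of 62710 genes. Of the 7, 5 passed the filter on low counts that left 18355 genes for testing, and MT1G and MT1M did not. The study profiled 3 established human hepatocellular carcinoma lines by bulk RNA sequencing, and its title names a histone H4 lactyl mark as a route by which lactate feeds back on glycolysis. Cells of PLC/PRF/5, HLF and SNU475 were cultured with 20 mM lactate, added as lactic acid, for 24 h, and each line had control cells labelled without that treatment. Each of the 6 groups had 2 libraries. No vehicle or pH adjustment of the control medium is named in the labels. The labels leave unsaid whether a group was drawn from separate cultures. The p-values therefore rest on the spread among libraries, some of which may be technical. A line stands for itself alone, so a difference between lines cannot be told apart from any other way in which those lines differ.

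Zinc that enters the cell is bound by metallothioneins, and free zinc also binds the zinc fingers of MTF1, which then occupies metal response elements in the promoters of metallothionein genes and of the zinc exporter gene SLC30A1. Metallothionein transcripts therefore serve as a common readout of available zinc, and they also respond to copper, cadmium, glucocorticoids and oxidants. In liver, hepatocytes are a main site of metallothionein synthesis and of zinc storage.

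The libraries held 16533437 to 22187849 counts. The PLC/PRF/5 libraries had 13 or 14 of 14 hepatocyte markers at 1 TPM (RSEM transcript abundance, scaled for length and depth) or more, with a summed level of 3835 to 8565 TPM. In HLF and SNU475 2 to 4 of the 14 reached that level per group, their sum was 5.5 to 18.7 TPM, and APOA1, APOA2, APOB and TTR were at 0 counts. Hepatocyte marker level and line cannot be told apart in this design. Summed mesenchymal markers stood at 1399 to 1937 TPM in PLC/PRF/5, 6286 to 7323 TPM in HLF and 5931 to 8130 TPM in SNU475, and summed epithelial markers at 3340 to 7153 TPM over all libraries. The 5 stellate markers summed to 4.72 to 6.44 TPM with lactate and 2.71 to 3.09 TPM in the control in PLC/PRF/5, to 22.2 to 29.3 TPM with lactate and 12.8 to 15.1 TPM in the control in HLF, and to 477 to 887 TPM over the SNU475 libraries. The 5 endothelial markers summed to 2.89 to 4.79 TPM with lactate and 0.66 to 1.25 TPM in the control in PLC/PRF/5, with VWF, KDR and STAB2 at 0 counts there, to 0.85 to 0.91 TPM with lactate and 0.74 to 0.83 TPM in the control in HLF, and to 1.22 to 2.66 TPM with lactate and 0.53 to 0.57 TPM in the control in SNU475. The part of these markers in the lactate results was not tested. Cholangiocyte markers summed to 10.2 to 46.3 TPM, and macrophage and leukocyte markers to 24.7 to 161 TPM. Both SNU475 libraries numbered 2 stood apart from those numbered 1. Their share of mitochondrially encoded counts was 13.88% with lactate and 15.05% in the control, against 8.5% and 8.0% in the libraries numbered 1, and their metallothionein levels were higher as well. The HLF controls also differed, with a mitochondrial share of 9.52% in number 1 and 3.39% in number 2. The HLF lactate libraries had 5.49% and 3.93%, and the PLC/PRF/5 libraries 6.21% to 7.08%. The part of these differences in the results was not tested beyond repeating them without the libraries concerned.

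The 6 metallothionein genes lie within 76.0 kb on chromosome 16, and MTF1 lies on chromosome 1 (chr1:37809567-37859620, minus strand, GENCODE 29, GRCh38). The promoter windows of MT2A, MT1X and MTF1 are shown because MTF1 protein binds metal response elements, which the MT2A and MT1X windows match and the MTF1 window does not. They are the 250 bases before the RefSeq gene start in GRCh38.p14: chr16:56608334-56608583 (plus strand) for MT2A, chr16:56682220-56682469 (plus strand) for MT1X and chr1:37859593-37859842 (minus strand) for MTF1. Capitals mark every match of the metal response element core, TGCACNC or TGCGCNC on either strand, where N is any base.
MT2A promoter: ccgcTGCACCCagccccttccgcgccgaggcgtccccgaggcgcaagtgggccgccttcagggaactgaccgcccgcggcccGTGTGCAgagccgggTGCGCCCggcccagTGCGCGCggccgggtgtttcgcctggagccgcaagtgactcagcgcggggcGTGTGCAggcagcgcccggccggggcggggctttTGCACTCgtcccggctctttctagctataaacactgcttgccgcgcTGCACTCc
MT1X promoter: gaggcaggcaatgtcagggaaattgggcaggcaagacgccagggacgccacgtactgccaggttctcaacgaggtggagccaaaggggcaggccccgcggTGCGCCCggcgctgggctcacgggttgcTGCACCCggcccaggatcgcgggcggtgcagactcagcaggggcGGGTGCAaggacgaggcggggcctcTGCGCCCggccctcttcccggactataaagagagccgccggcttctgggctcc
MTF1 promoter: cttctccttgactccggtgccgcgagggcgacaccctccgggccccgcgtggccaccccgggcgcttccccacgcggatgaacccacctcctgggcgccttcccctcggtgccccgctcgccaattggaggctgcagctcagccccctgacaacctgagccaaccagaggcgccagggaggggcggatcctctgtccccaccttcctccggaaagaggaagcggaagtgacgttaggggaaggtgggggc

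The MT2A window held 7 cores and the MT1X window 4, while the MTF1 window held 0. Of 35116 RefSeq promoter windows of the same length, 24.8% held at least 1 core, 0.37% held at least 4 and 0.0313% held at least 7. The core nearest to the gene start began 8 bases before it in MT2A and 53 bases before it in MT1X. The MT2A and MT1X windows each also held 1 TATAAA box, found in 10.7% of all windows, and 1 antioxidant response element core (TGACNNNGC), found in 10.9%. No base was shared between these motifs and the metal response cores. A match describes the letters only and is neither a bound site nor a cause of any level below. Windows for MT1E, MT1F, MT1G and MT1M were not used here.

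The coding sequences of the 6 metallothioneins were each 186 bases long in GENCODE 29 and 88.7% to 95.2% identical in pairs. The coding exons of the 3 abundant members, joined 5′ to 3′, show where they differ. Capitals mark the bases that differ from MT2A, and the coordinates span the first to the last coding base on the plus strand in GRCh38: chr16:56608656-56609354 for MT2A, chr16:56625852-56626971 for MT1E and chr16:56682541-56684049 for MT1X.
MT2A coding: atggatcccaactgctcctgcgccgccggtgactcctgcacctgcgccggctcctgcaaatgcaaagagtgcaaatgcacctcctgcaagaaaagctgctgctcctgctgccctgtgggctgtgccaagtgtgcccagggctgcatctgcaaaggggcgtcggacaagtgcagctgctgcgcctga
MT1E coding: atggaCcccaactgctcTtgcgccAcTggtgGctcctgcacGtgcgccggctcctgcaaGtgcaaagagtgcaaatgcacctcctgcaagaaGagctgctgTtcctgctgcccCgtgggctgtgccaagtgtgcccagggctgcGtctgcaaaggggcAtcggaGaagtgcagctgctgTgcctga
MT1X coding: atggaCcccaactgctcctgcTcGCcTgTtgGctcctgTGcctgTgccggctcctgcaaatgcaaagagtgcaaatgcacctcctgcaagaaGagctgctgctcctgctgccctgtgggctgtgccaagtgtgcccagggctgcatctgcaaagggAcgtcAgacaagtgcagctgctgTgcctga

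MT1E and MT1X each differed from MT2A at 14 of the 186 bases, or 92.5% identity. Across whole transcripts, the share of 50-base windows found in another metallothionein gene was 2.17% for MT2A, 5.34% for MT1E and 14.7% for MT1X, and no 100-base window was shared. RSEM divides reads with several matches by estimate, so the values of MT1G (19.9% shared windows) and MT1X are less certain than those of MT2A. The genes are also short. The effective length that RSEM used was 135 to 156 bases for MT2A and 141 to 162 for MT1X, and it varied from 166 to 432 bases for MT1F, whose counts are therefore given instead of its TPM.

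In untreated cells the cluster was used very unevenly and differently in each line. MT2A, the most widely expressed human metallothionein, led in all 3 lines. MT2A averaged 178 ± 51.1 TPM in PLC/PRF/5, 4101 ± 394 TPM in HLF and 874 ± 346 TPM in SNU475 (SD, n = 2 each). MT1X, at the far end of the cluster, was at nearly equal levels in PLC/PRF/5 and HLF, whereas MT1E was far higher in HLF than in the others. MT1F and MT1G, which lie between them, were at 0 counts in HLF.

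**Figure D1:**
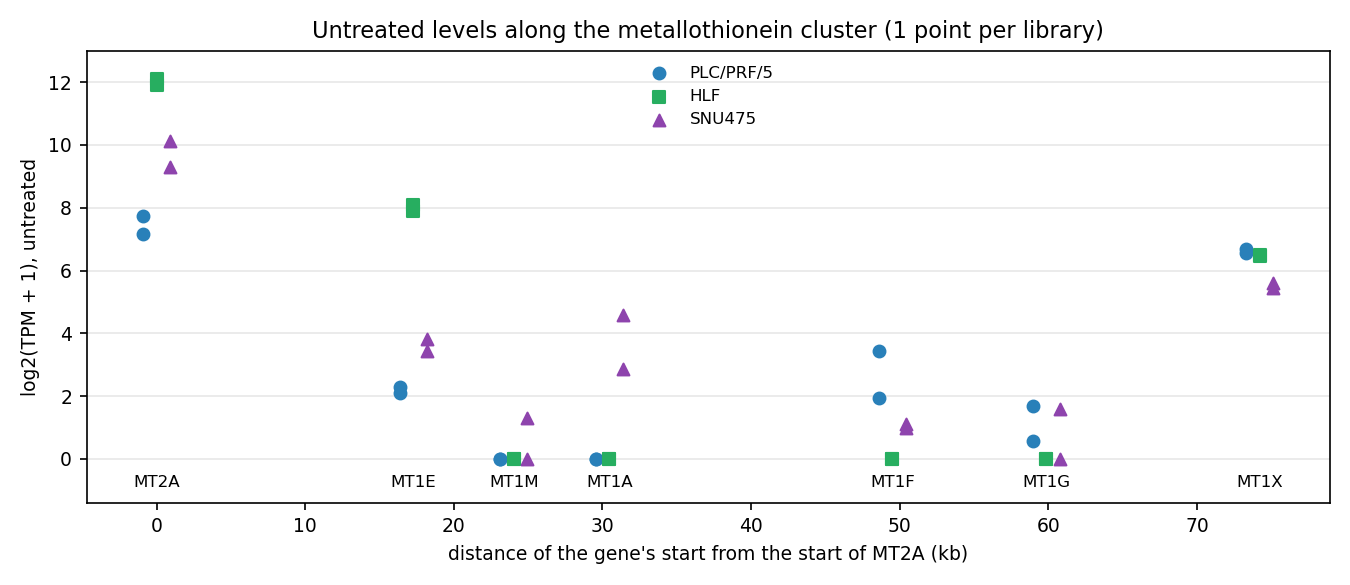
Untreated level of each expressed gene of the cluster, as log2(TPM + 1), against the distance of its start from the start of MT2A in kb, with 1 point per library and points of the 3 lines set slightly apart. MT2A at 0 kb and MT1E at 17.3 kb are highest in HLF, MT1A at 30.5 kb is above 0 in SNU475 alone, MT1F at 49.5 kb is at 0 in HLF, and MT1X at 74.2 kb is lower in SNU475 (42.9 and 47.6 TPM) than in PLC/PRF/5 and HLF.

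MT2A stood at 214 and 142 TPM in the PLC/PRF/5 controls, at 3823 and 4379 TPM in HLF controls and at 629 and 1119 TPM in the SNU475 controls. These ranges did not overlap, and the order was HLF above SNU475 above PLC/PRF/5. In the HLF controls MT2A ranked 25 and 15 among all genes by TPM, and in the PLC/PRF/5 controls 683 and 1082. In the count test the log2 fold change of PLC/PRF/5 over HLF was -4.90 ± 0.49 (29.9-fold lower; edgeR adjusted p = 1.15e-05), that of PLC/PRF/5 over SNU475 was -2.96 ± 0.45 (7.78-fold lower; edgeR adjusted p = 0.000269), and that of HLF over SNU475 was 1.94 ± 0.43 (3.84-fold higher; edgeR adjusted p = 0.00399). The error given with each log2 fold change is a standard error calculated back from the test, as the size of the change over the square root of the edgeR F statistic. These are bulk values, in which fewer cells expressing a gene and less RNA per cell cannot be told apart. Without both SNU475 libraries numbered 2, the log2 fold changes against SNU475 were -2.27 for PLC/PRF/5 (edgeR adjusted p = 1.74e-06) and 2.57 for HLF (edgeR adjusted p = 2.62e-06).

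MT1E, a metal-inducible isoform, differed more than MT2A in both comparisons with HLF and less in PLC/PRF/5 over SNU475. It stood at 3.87 and 3.31 TPM in the PLC/PRF/5 controls, at 237 and 268 TPM in HLF controls and at 9.76 and 13.2 TPM in the SNU475 controls. The order of the lines was that of MT2A, again without overlap. Its log2 fold change was -6.60 ± 0.53 in PLC/PRF/5 over HLF (97.0-fold lower; edgeR adjusted p = 2.35e-06), -2.37 ± 0.50 in PLC/PRF/5 over SNU475 (5.17-fold lower; edgeR adjusted p = 0.00249) and 4.24 ± 0.46 in HLF over SNU475 (18.9-fold higher; edgeR adjusted p = 3.54e-05). The PLC/PRF/5 values rest on 21 and 15 counts. Without both SNU475 libraries numbered 2, MT1E was -1.80 in PLC/PRF/5 over SNU475 (edgeR adjusted p = 0.000685) and 4.75 in HLF over SNU475 (edgeR adjusted p = 2.47e-08), on the log2 scale.

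**Figure D2:**
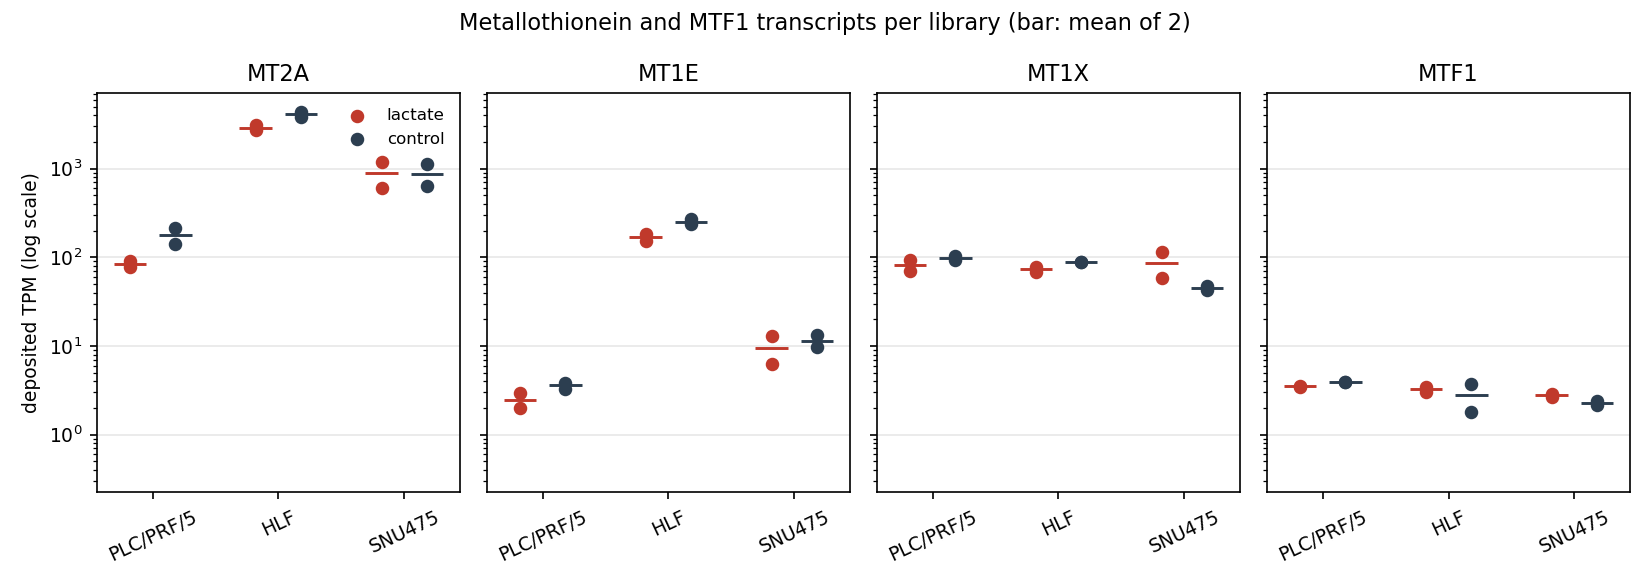
Deposited TPM of MT2A, MT1E, MT1X and MTF1 on a log axis, by line, with lactate libraries in red on the left and control libraries in dark blue on the right of each line, 1 point per library and a bar at the mean of 2. MT2A and MT1E span the lines widely, with HLF highest, whereas MT1X stays between 42.9 and 115 TPM and MTF1 between 1.82 and 3.94 TPM.

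MT1X, another isoform of the same cluster, did not follow this order. It stood at 92.6 and 103 TPM in the PLC/PRF/5 controls, at 87.6 and 88.7 TPM in HLF controls and at 42.9 and 47.6 TPM in the SNU475 controls. By TPM the SNU475 libraries lay below all others, but the count test called none of the 3 differences. On counts the log2 fold change was -0.19 ± 0.40 in PLC/PRF/5 over HLF (edgeR adjusted p = 0.739), 0.53 ± 0.40 in PLC/PRF/5 over SNU475 (edgeR adjusted p = 0.296) and 0.73 ± 0.40 in HLF over SNU475 (edgeR adjusted p = 0.177). A limma fit on log2(TPM + 1) gave 0.15 for PLC/PRF/5 over HLF (adjusted p = 0.737), the opposite sign, 1.10 for PLC/PRF/5 over SNU475 (adjusted p = 0.00896) and 0.95 for HLF over SNU475 (adjusted p = 0.0259). The call of MT1X against SNU475 therefore depended on the scale used. In the count fit without both SNU475 libraries numbered 2, HLF over SNU475 was 0.92 (edgeR adjusted p = 0.0333).

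MT1F had 21 and 8 counts in the PLC/PRF/5 controls, 0 and 0 in HLF controls and 3 and 4 in the SNU475 controls. A count of 0 allows 3 counts over the HLF group (0.0767 CPM, that is, counts scaled to the library total; counting error only). Against that limit the observed MT1F level was 9.99-fold higher in PLC/PRF/5 (edgeR adjusted p = 0.00388) and 2.59-fold higher in SNU475 (edgeR adjusted p = 0.0367). These limits leave out the counting error of the 29 and 7 counts themselves. With 1 library left out these limits ranged from 4.85 (without the HLF control numbered 1) to 15.4 for PLC/PRF/5, with 5.19 without the PLC/PRF/5 control numbered 1 and 5.14 without the HLF control numbered 2. They ranged from 1.26 to 3.0 for SNU475, the lower values, 1.26 and 1.34, being those without 1 HLF control, since 3 counts are then set against 1 library. The call of MT1F between SNU475 and HLF was lost with DESeq2 (adjusted p = 0.0513) and on TPM with limma (adjusted p = 0.0876). It was also lost without both SNU475 libraries numbered 2, and in 6 of the 12 edgeR fits that left out 1 library, among them those without any 1 control of HLF or SNU475. MT1F in PLC/PRF/5 over SNU475 had a log2 fold change of 1.95 ± 0.88 on 29 and 7 counts (edgeR adjusted p = 0.095), which limma on log2(TPM + 1) called (adjusted p = 0.00941). On counts it was 0.98 without the PLC/PRF/5 control numbered 1 and 2.54 without that numbered 2, and edgeR called it in 0 of the 12 fits that left out 1 library. MT1F passed the low-count filter through its values outside HLF.

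MT1G, a metal-inducible isoform, had 4 and 0 counts with lactate and 4 and 1 in the control in PLC/PRF/5, and 0 in all 4 HLF libraries. In SNU475 it had 0 and 1 counts with lactate and 0 and 6 in the control. MT1M had 4 counts in the SNU475 control numbered 2 and 0 in the other 11 libraries. Both were therefore near or at the limit of detection throughout, and no difference between groups was detectable at this depth.

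MTF1, the zinc-sensing regulator, was low and even. It stood at 3.94 and 3.93 TPM in the PLC/PRF/5 controls, at 1.82 and 3.77 TPM in HLF controls and at 2.39 and 2.16 TPM in the SNU475 controls. The HLF control numbered 1, with the higher mitochondrial share, was the lower of its pair. The SNU475 range lay inside that of HLF, and PLC/PRF/5 lay above both. None of the 3 count comparisons was called: the log2 fold changes were 0.26 ± 0.25 in PLC/PRF/5 over HLF (edgeR adjusted p = 0.45), 0.25 ± 0.25 in PLC/PRF/5 over SNU475 (edgeR adjusted p = 0.43) and -0.00 ± 0.25 in HLF over SNU475 (edgeR adjusted p = 1.0). PLC/PRF/5 and HLF, 29.9-fold apart in MT2A, were thus 1.2-fold apart in MTF1 in the fit, a difference about as large as its standard error. Without the HLF control numbered 1 that log2 fold change was 0.01.

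Between untreated PLC/PRF/5 and HLF, 3 of the 7 members were called (MT2A and MT1E lower, MT1F higher), where 43.0% of all tested genes were called (21.3% lower and 21.7% higher). Between untreated PLC/PRF/5 and SNU475, 2 of 7 were called, both lower, beside 48.7% of all tested genes (26.3% lower and 22.4% higher). Between untreated HLF and SNU475, 3 of 7 were called (MT2A and MT1E higher, MT1F lower), beside 39.0% (17.2% higher and 21.9% lower). MT1G and MT1M, which were not tested, are among the 7, whereas the shares are of tested genes. MT1F entered the test only through its values outside HLF, so its calls against HLF add no support of their own. The summed counts of all MT1 and MT2 rows gave log2 fold changes of -4.41 ± 0.47 (PLC/PRF/5 over HLF; edgeR adjusted p = 1.88e-05), -2.35 ± 0.43 (PLC/PRF/5 over SNU475; edgeR adjusted p = 0.000951) and 2.06 ± 0.42 (HLF over SNU475; edgeR adjusted p = 0.00255). Without both SNU475 libraries numbered 2 the sum was -1.68 in PLC/PRF/5 over SNU475 (edgeR adjusted p = 1.69e-05) and 2.67 in HLF over SNU475 (edgeR adjusted p = 9.13e-07). Without the SNU475 control numbered 2 alone it was -1.68 and 2.70. Summing removes the question of how RSEM divided reads among near-identical copies.

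The make-up of the family differed as well. MT2A made up 66.3% and 56.3% of the summed TPM of the 6 metallothioneins in the PLC/PRF/5 controls, 92.2% and 92.5% in HLF controls, and 92.1% and 94.5% in the SNU475 controls. The remainder in PLC/PRF/5 was mainly MT1X, at 28.7% and 41.1%, whereas MT1X took 1.87% to 6.27% in the controls of the other lines. With lactate the MT2A share in PLC/PRF/5 was 46.9% and 50.3%, below both controls, and the MT1X share was 48.6% and 44.9%, above both controls. The MT1X share lay above both controls in the other lines too, at 2.34% and 2.35% with lactate and 2.11% and 1.87% in the control in HLF, and at 8.59% and 8.67% with lactate and 6.27% and 4.02% in the control in SNU475. In the PLC/PRF/5 lactate library numbered 1, MT1X stood above MT2A, at 93.1 against 90.0 TPM. MT2A also took a smaller share with lactate in SNU475, at 90.2% and 90.0%, against 92.1% and 94.5% in the control. In HLF it took 92.5% and 92.2% with lactate and 92.2% and 92.5% in the control. With 2 libraries against 2, the exact permutation test (two-sided) cannot go below p = 0.333, which is the value it gave for the MT2A share in PLC/PRF/5 and SNU475.

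**Figure D3:**
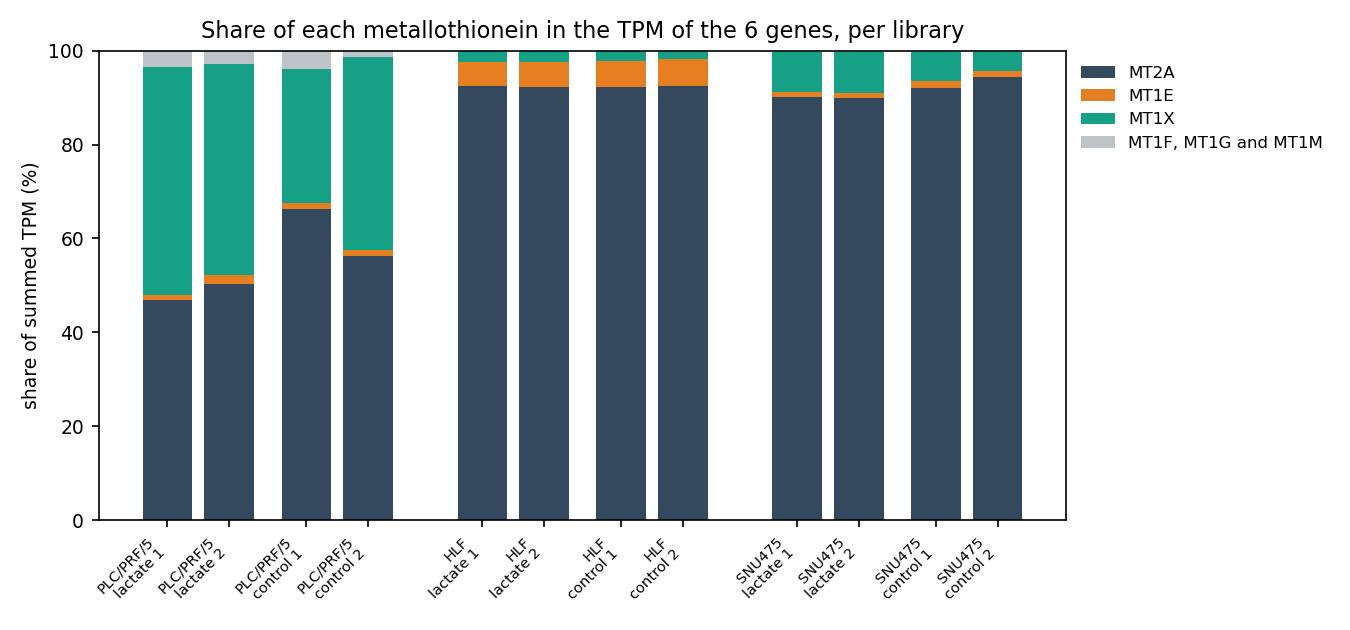
Share of each metallothionein in the summed TPM of the 6 genes, in percent, for each of the 12 libraries, with lactate libraries left of control libraries in each line. MT2A fills 90.0% to 94.5% of every HLF and SNU475 bar, and MT1X reaches 44.9% to 48.6% in PLC/PRF/5 with lactate, against 28.7% and 41.1% in its controls.

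With lactate, MT2A was lower in PLC/PRF/5 and HLF without overlap of the libraries and overlapped its controls in SNU475. The main edgeR fit used all 12 libraries, the low-count filter and no replicate block. It called none of the 7 members in any line. With the block, in which libraries of the same number are taken as paired, MT2A was called in PLC/PRF/5 alone (-1.07, edgeR adjusted p = 0.0263). In PLC/PRF/5 the MT2A level was 90.0 and 78.5 TPM with lactate, against 214 and 142 TPM in the control. Both lactate libraries lay below both controls. The log2 fold change was -1.08 ± 0.44, which is 2.11-fold lower (edgeR unadjusted p = 0.0304, adjusted p = 0.789), and libraries of the same number gave -1.21 and -0.92. In HLF the MT2A level was 2705 and 3085 TPM with lactate, against 3823 and 4379 TPM in the control. The groups were again apart, with a log2 fold change of -0.68 ± 0.41 (edgeR adjusted p = 0.858) and -0.89 and -0.47 within numbers. Without the HLF control numbered 1 it was -0.57. In SNU475 the MT2A level was 610 and 1192 TPM with lactate, against 629 and 1119 TPM in the control. The groups overlapped fully there, and the difference between the numbers was far larger than that between treatments: the library numbered 2 over that numbered 1 was 2.48-fold in CPM with lactate and 2.19-fold in the control. The fold change in SNU475 was 0.04 ± 0.41 on the log2 scale (edgeR adjusted p = 1.0), and -0.10 without both libraries numbered 2.

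**Figure D4:**
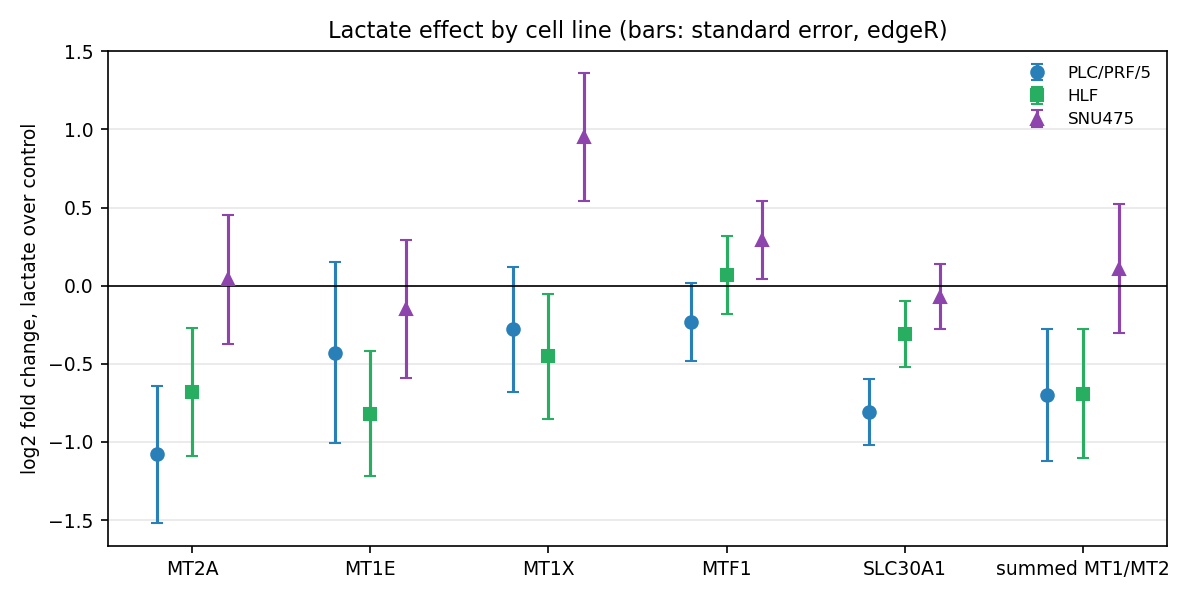
Log2 fold change of lactate over control in each line for MT2A, MT1E, MT1X, MTF1, SLC30A1 and the summed MT1 and MT2 counts, with standard errors calculated back from the edgeR F statistic. The PLC/PRF/5 and HLF points of MT2A, MT1E, MT1X, SLC30A1 and the sum lie below 0, from -1.08 for MT2A in PLC/PRF/5 to -0.28 for MT1X in PLC/PRF/5, and the SNU475 point of MT1X lies at 0.95.

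Averaged over the 3 lines, MT2A had a log2 fold change of -0.57 ± 0.24 with lactate (1.48-fold lower; edgeR unadjusted p = 0.0368, adjusted p = 0.278). Pairing of same-numbered libraries was assumed, and with replicate number as a block MT2A fell by 0.58 on average (edgeR adjusted p = 0.00774). The summed family had -0.43 ± 0.24 on average (edgeR adjusted p = 0.409), and with the replicate block it fell by 0.44 (edgeR adjusted p = 0.0188). MT2A was also called in PLC/PRF/5 when that line was fitted alone (-1.09; edgeR adjusted p = 0.0341), without the low-count filter (-1.08; edgeR adjusted p = 0.00751) and without both SNU475 libraries numbered 2 (-1.09; edgeR adjusted p = 0.0308), but not with DESeq2 (-1.10; adjusted p = 0.425) or limma-voom (-1.04; adjusted p = 0.798). The edgeR settings that called MT2A also called other genes in PLC/PRF/5, where the main fit called 0. Over the whole table they numbered 569 with that line fitted alone. The set of genes tested differed between those settings, so no share is given. The call of MT2A varied with the model, while its fold change moved little between these models. With 1 library left out, its log2 fold change ranged more widely, from -1.35 to -0.76 in PLC/PRF/5. Averaged over the lines it then ranged from -0.84 to -0.35.

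MT1E in PLC/PRF/5 was 2.0 and 2.92 TPM with lactate, against 3.87 and 3.31 TPM in the control. By CPM these groups overlapped, and the log2 fold change was -0.43 ± 0.58 (edgeR adjusted p = 1.0). In HLF it was 152 and 184 TPM with lactate, against 237 and 268 TPM in the control, apart on both scales, with -0.82 ± 0.40 (edgeR adjusted p = 0.821). In SNU475 it was 6.21 and 13 TPM with lactate, against 9.76 and 13.2 TPM in the control, and the log2 fold change was -0.15 ± 0.44 (edgeR adjusted p = 0.951). The SNU475 groups overlapped.

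MT1X took the opposite sign in SNU475, at 58.1 and 115 TPM with lactate, against 42.9 and 47.6 TPM in the control. The groups were apart by TPM but overlapped by CPM, where the lower lactate library stood at 7.59 and the higher control at 7.88. The log2 fold change was 0.95 ± 0.41 (edgeR unadjusted p = 0.0378, adjusted p = 0.398), and it depended on the lactate libraries: 0.14 without number 2 (edgeR adjusted p = 0.923) and 1.47 without number 1 (edgeR adjusted p = 0.0175). In PLC/PRF/5 MT1X was 93.1 and 70.1 TPM with lactate, against 92.6 and 103 TPM in the control, with -0.28 ± 0.40 (edgeR adjusted p = 1.0). In HLF it was 68.6 and 78.5 TPM with lactate, against 87.6 and 88.7 TPM in the control, with -0.45 ± 0.40 (edgeR adjusted p = 0.909). The HLF groups were apart and the PLC/PRF/5 groups overlapped. The test of a different lactate effect between lines gave MT1X an unadjusted p of 0.0612 and an adjusted p of 1.0 in edgeR, so its opposite signs were not shown to differ.

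MT1F had 10 and 14 counts with lactate in SNU475, against 3 and 4 in the control, and 22 and 14 with lactate in PLC/PRF/5, against 21 and 8 in the control. The SNU475 groups were apart, with a log2 fold change of 1.94 ± 0.89 (edgeR adjusted p = 0.442), and the PLC/PRF/5 groups overlapped (-0.01 ± 0.78; edgeR adjusted p = 1.0). MTF1 in PLC/PRF/5 was 3.53 and 3.49 TPM with lactate, against 3.94 and 3.93 TPM in the control (-0.23 ± 0.25; edgeR adjusted p = 0.989). MTF1 in HLF was 3.03 and 3.45 TPM with lactate, against 1.82 and 3.77 TPM in the control (0.07 ± 0.25; edgeR adjusted p = 1.0; -0.19 without the control numbered 1). MTF1 in SNU475 was 2.90 and 2.67 TPM with lactate, against 2.39 and 2.16 TPM in the control (0.29 ± 0.25; edgeR adjusted p = 0.705). MTF1 lay below both controls in PLC/PRF/5, overlapped in HLF and lay above both controls in SNU475, with fold changes no larger than about their standard error.

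In the main edgeR fit 0 members were called in each line, and 0% of all tested genes were: 0 of 18355 in PLC/PRF/5, HLF and SNU475 alike. At an unadjusted p under 0.05 the counts over all genes were 1087 in PLC/PRF/5, 1152 in HLF and 2127 in SNU475, and DESeq2 called 91 in PLC/PRF/5 (0.496%), 42 in HLF (0.229%) and 274 in SNU475 (1.49%), with 0 members among them. With the replicate block edgeR called 0.659% of genes in PLC/PRF/5, with MT2A the 1 member, 0.0163% in HLF and 0.251% in SNU475, both with 0 members. For the mean of the lines edgeR called 77 genes, 0.42% of those tested (0.114% lower and 0.305% higher), and 0 members, with 2903 genes at an unadjusted p under 0.05 and 947 (5.16%) called by DESeq2. With the block it called 6.91%, with MT2A the 1 member. For the difference between lines edgeR called 0 genes (0%), with 644 at an unadjusted p under 0.05 and 9 (0.049%) called by DESeq2, and 0 members by either or with the block (0.0327% of genes). Both lactate libraries lay below both controls in CPM for 2 of 7 members in PLC/PRF/5 (MT2A and MTF1), where 21.8% of all genes did so and 28.5% lay above, and for 3 of 7 in HLF (MT2A, MT1E and MT1X), where 19.9% did and 19.6% lay above. Both lay above for 2 of 7 in SNU475 (MT1F and MTF1), where 16.2% of all genes did so and 15.4% lay below.

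SLC30A1 encodes the plasma membrane zinc exporter and is a known target of MTF1. In PLC/PRF/5 it was 18.6 and 14.5 TPM with lactate, against 30.6 and 24.6 TPM in the control. Both lactate libraries lay below both controls there by TPM and by CPM. In HLF it was 15.6 and 13.2 TPM with lactate, against 12.5 and 18.9 TPM in the control, which overlapped by TPM although the CPM values of the lactate libraries lay below both controls. In SNU475 it was 29.6 and 26.9 TPM with lactate, against 29.6 and 29.4 TPM in the control, and overlapped by CPM. The log2 fold change in PLC/PRF/5 was -0.81 ± 0.21 (1.75-fold lower; edgeR adjusted p = 0.452), and it was called by DESeq2 (-0.82; adjusted p = 0.0416) and with the replicate block, where it fell by 0.80 (edgeR adjusted p = 0.047). In HLF it was -0.31 ± 0.21 (edgeR adjusted p = 0.868; limma on TPM -0.10, adjusted p = 1.0) and in SNU475 -0.07 ± 0.21 (edgeR adjusted p = 0.946). The mean over lines was -0.40 ± 0.12 (edgeR adjusted p = 0.142), called by DESeq2 (-0.39; adjusted p = 0.0441) and with the replicate block (-0.39; edgeR adjusted p = 0.0276). In untreated cells SLC30A1 did not follow MT2A: it was 30.6 and 24.6 TPM in PLC/PRF/5, 12.5 and 18.9 TPM in HLF and 29.6 and 29.4 TPM in SNU475. HLF, with the highest MT2A, had the lowest SLC30A1, with a log2 fold change of -1.18 ± 0.21 in HLF over SNU475 (edgeR adjusted p = 0.00106). PLC/PRF/5 over HLF was 0.54 ± 0.21 (edgeR adjusted p = 0.0528; DESeq2 adjusted p = 0.02), and PLC/PRF/5 over SNU475 was -0.64 ± 0.21 (edgeR adjusted p = 0.0243), which was lost on TPM (-0.10; limma adjusted p = 0.773) and without both SNU475 libraries numbered 2 (-0.46; edgeR adjusted p = 0.0859). It was also lost without the SNU475 control numbered 2 alone and without the PLC/PRF/5 control numbered 2, at -0.46 in both fits.

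Other genes of zinc and copper handling, and of the glucocorticoid and heat shock pathways, were counted from lists. In the main fit edgeR called 0 list genes for lactate in any line, in the mean or in the difference between lines. Without the low-count filter it called SLC39A10, DUSP1, KLF9, PER1 and SGK1 in SNU475, among 414 genes, and SGK1 in PLC/PRF/5. DUSP1, KLF9, PER1 and SGK1 belong to the glucocorticoid list. In the main fit all of these were higher with lactate in SNU475, whereas SGK1 was lower in PLC/PRF/5 (-1.05 ± 0.5). Without the filter edgeR also called SLC30A3, SLC39A10, DUSP1, KLF9 and PER1 in the mean, and DUSP1, KLF9 and SGK1 in the difference between lines. With PLC/PRF/5 fitted alone it called SLC30A1, SLC30A3, SLC39A4 and SGK1. In the main fit SLC30A1 and SGK1 were lower there with lactate, and SLC30A3 and SLC39A4 higher. With the block edgeR called SLC30A1 in PLC/PRF/5, beside 0.659% of all genes. In the mean it called SLC30A1, SLC30A3, SLC39A10 and KLF9, beside 6.91%, SLC39A10 being named after its values were seen. Their directions differed: the main fit gave mean log2 fold changes of -0.40, 1.31, 0.73 and 1.30 in that order. DESeq2 called SLC39A10 in SNU475, and SLC30A1, SLC39A10 and KLF9 in the mean, where it called 5.16% of all genes. Beside the counts between untreated lines that follow, 43.0% of all tested genes were called in PLC/PRF/5 over HLF, 48.7% in PLC/PRF/5 over SNU475 and 39.0% in HLF over SNU475. Of 10 zinc exporters 9 were tested, and 2 were higher (SLC30A10 and SLC30A3) and 1 lower (SLC30A7) in untreated PLC/PRF/5 than in HLF. In PLC/PRF/5 against SNU475 2 were higher (SLC30A10 and SLC30A9) and 3 lower, SLC30A3 and SLC30A1 among them. In HLF against SNU475 1 was higher (SLC30A9) and 2 lower (SLC30A3 and SLC30A1). SLC30A10 had 117 counts in the PLC/PRF/5 controls and 0 in the controls of the other lines. It passed the low-count filter through its PLC/PRF/5 values, so its calls add no support of their own. The median log2 fold change of the exporters was 0.53 in PLC/PRF/5 over HLF, -0.15 in PLC/PRF/5 over SNU475 and -0.24 in HLF over SNU475. For list medians, genes empty in 1 group were set to 3 counts, and genes at 3 counts or fewer in both groups were left out. Without these steps the exporter median in HLF over SNU475 was -0.02. Over all genes, without these steps, the medians were 0.00, -0.03 and 0.00. List medians below follow that order of comparisons.

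Of 14 zinc importers 13 were tested, and 7, 5 and 5 were called in PLC/PRF/5 over HLF (4 higher, 3 lower), PLC/PRF/5 over SNU475 (3 higher, 2 lower) and HLF over SNU475 (3 higher, 2 lower), with medians of -0.33, -0.03 and 0.24. These counts stand beside 43.0%, 48.7% and 39.0% of all genes. SLC39A14, an importer of zinc, iron and manganese, averaged 232 ± 8.09 TPM in PLC/PRF/5, 74.3 ± 14.9 TPM in HLF and 14.6 ± 3.61 TPM in SNU475 (SD, n = 2 each). Its log2 fold change was 1.4 ± 0.22 in PLC/PRF/5 over HLF (edgeR adjusted p = 0.000342) and 3.45 ± 0.24 in PLC/PRF/5 over SNU475 (edgeR adjusted p = 7.72e-07). The line with the lowest MT2A thus had the highest SLC39A14. SLC39A4, the main zinc importer of the intestine, was 3.65 ± 0.45 higher in PLC/PRF/5 over HLF (log2; edgeR adjusted p = 6.07e-05) and -1.94 ± 0.35 in PLC/PRF/5 over SNU475 (edgeR adjusted p = 0.000834). SLC39A5, counted as higher in PLC/PRF/5 in both comparisons, had 337 counts in PLC/PRF/5, 1 in HLF and 0 in SNU475 controls. It passed the low-count filter through its PLC/PRF/5 values, so its calls add no support of their own. SLC39A9 was also higher in PLC/PRF/5 than in HLF, SLC39A8 lower in PLC/PRF/5 than in SNU475, and SLC39A6 and SLC39A13 higher in HLF than in SNU475.

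Of 11 copper handling genes, all tested, 4 were higher and 1 lower in PLC/PRF/5 over HLF, 4 higher and 2 lower in PLC/PRF/5 over SNU475, and 2 higher and 3 lower in HLF over SNU475, with medians of 0.43, 0.13 and 0.03, beside 43.0%, 48.7% and 39.0% of all genes called. ATP7B, the copper exporter of hepatocytes, averaged 25.2 ± 2.28 TPM in PLC/PRF/5, 2.59 ± 0.424 TPM in HLF and 1.13 ± 0.537 TPM in SNU475 (SD, n = 2 each). Its log2 fold change was 3.42 ± 0.26 in PLC/PRF/5 over HLF (edgeR adjusted p = 1.55e-06). The copper importer gene SLC31A1, SLC31A2 and COX11 were also higher in PLC/PRF/5 than in both other lines. ATP7A and CCS were lower in HLF than in SNU475. Of 11 other metallothionein rows 1 was tested: MT1A had 22 and 91 counts with lactate and 14 and 62 in the control in SNU475, and 0 in the other 8 libraries. Against 3 counts allowed over the empty group, the observed MT1A level in untreated SNU475 was 28.2-fold higher than in HLF (edgeR adjusted p = 0.0104). Against PLC/PRF/5 it was 27.3-fold higher (edgeR adjusted p = 0.00842). DESeq2 did not make these calls (adjusted p = 0.225 and 0.209). These limits leave out the counting error of the SNU475 counts and rest largely on the SNU475 control numbered 2. Without that library they were 10.3-fold and 9.93-fold. MT1A passed the low-count filter only through its SNU475 values, so the adjusted p-values add no support of their own.

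Glucocorticoid and heat shock genes were counted because both pathways can raise metallothioneins. Of 10 genes of the glucocorticoid list, 9 were tested. In untreated cells 3 were higher and 2 lower in PLC/PRF/5 over HLF (SGK1 and ERRFI1 lower, CEBPD and NR3C1 higher among them). In PLC/PRF/5 over SNU475 3 were higher and 3 lower (DUSP1, ERRFI1 and PER1 higher, TSC22D3 lower among them). In HLF over SNU475 3 were higher and 3 lower (ERRFI1 higher, CEBPD, TSC22D3 and KLF9 lower). The medians were 0.68, 0.07 and -0.29, beside 43.0%, 48.7% and 39.0% of all genes called. With lactate the median of this list was 0.00 in PLC/PRF/5, 0.36 in HLF and 0.89 in SNU475, against 0.03, 0.00 and 0.01 over all genes. In the main fit edgeR called 0 genes of this list. Without both SNU475 libraries numbered 2 it called KLF9 in HLF and SGK1 in PLC/PRF/5, and DESeq2 called DUSP1 and KLF9 in SNU475. Of 7 heat shock genes 1 was higher and 2 lower in PLC/PRF/5 over HLF (DNAJB1 higher, BAG3 and HSPB1 lower), 0 higher and 4 lower in PLC/PRF/5 over SNU475 (HSPB1, HSF1, BAG3 and HSPA1B), and 0 higher and 3 lower in HLF over SNU475 (HSPB1, HSF1 and HSPA1B), with medians of 0.03, -0.98 and -0.78. Of all genes 21.7% were higher and 21.3% lower in PLC/PRF/5 over HLF, 26.3% lower in PLC/PRF/5 over SNU475 and 21.9% lower in HLF over SNU475. HSPB1, a small heat shock protein gene, averaged 496 ± 9.86 TPM in PLC/PRF/5, 823 ± 127 TPM in HLF and 4980 ± 922 TPM in SNU475 (SD, n = 2 each).

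Members were compared with each other and with other genes by Pearson correlation of log2(CPM + 1) over the 12 libraries, which share lines and depth, as a description. MT2A and MT1E had r = 0.91, and 0.848 after centring each line. MT2A and MT1X had r = 0.259, and 0.682 after centring. MT2A and MTF1 had r = -0.129, and 0.389 after centring. For MT1X the correlation with MT2A was thus larger after centring than over the levels as a whole. Centred values pool the lines. In SNU475 number 2 over number 1 was 2.48-fold with lactate and 2.19-fold in the control for MT2A. For MT1X it was 2.49-fold and 1.36-fold. The genes went opposite ways between numbers only in the PLC/PRF/5 controls, at 0.664-fold for MT2A and 1.12-fold for MT1X. Correlation within each line was not calculated. Among 13423 genes the levels most like the summed family were those of CD59 (r = 0.992), CNRIP1 (0.99), TUBB6 (0.989), ENSG00000291130 (0.989) and ADGRE1 (0.988). CD59, an inhibitor of complement on the cell surface, averaged 102 CPM with lactate and 125 CPM in the control in PLC/PRF/5, 1078 CPM with lactate and 1493 CPM in the control in HLF, and 456 CPM with lactate and 385 CPM in the control in SNU475. After centring each line the highest were KIFBP (r = 0.973), UTP11 (0.967), CCT5 (0.965), ENSG00000258232 (0.96) and RASSF3 (0.956). These values also pool the lines and include the SNU475 gap between numbers.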

How the data were processed

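RNA was extracted with TRIzol and sequenced from directional libraries, per the labels' protocols. The deposited tables give, per gene and library, the expected count and TPM that RSEM estimated, per the file headers. Tools named in the submitters' processing notes are STAR, RSEM, FastQC and DESeq2, with no versions. Those notes list mouse builds, although 0 rows carry mouse identifiers, and for human data build and annotation were not given in the sources used here. Expected counts deposited by the authors were rounded, and 47 pseudoautosomal Y rows were added to their X copies, which left 62710 genes.

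Counts of all 12 libraries were fitted as 6 groups with edgeR 4.0.16 (R 4.3.3; TMM factors 0.794 to 1.165, filterByExpr with a minimum count of 10, quasi-likelihood F-test). The Benjamini-Hochberg adjustment ran over 18355 genes and calls were made at 0.05. The biological coefficient of variation was 0.26 with 6 residual degrees of freedom. All MT1 and MT2 rows were also added into 1 row and fitted. Alternatives were DESeq2 1.42.0, limma-voom and limma-trend (limma 3.58.1) on log2(deposited TPM + 1), other scalings, no filter, a replicate block, lines fitted alone, and libraries left out. The test was tried on simulated data first. CPM used the totals of the tested genes scaled by the TMM factors. A count of 0 was taken to allow 3 counts over a group, and such floors cover counting error only. Fold limits against a floor used the observed counts of the other group, without their counting error.

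Replicate numbers come from the sample titles. The PLC/PRF/5 libraries numbered 2 in the titles carry the number 3 in their deposited names, and the replicate block rests on the title numbers. Within PLC/PRF/5, lactate and control libraries of 1 number deviated together from their group means with a correlation of 0.132. It was 0.101 for HLF and 0.446 for SNU475. The titles give numbers only, and the low values in PLC/PRF/5 and HLF give little ground for pairing. The replicate block and its calls therefore rest on an assumed pairing. Replicates correlated at 0.95 to 0.988, against at most 0.812 between lines.

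All 7 members and SLC30A1 are named. From the lists (other metallothioneins, zinc exporters, zinc importers, copper handling, glucocorticoid receptor and targets, heat shock response) up to 4 called genes with the smallest p were named per comparison. Genes of like pattern are the 5 with the highest r to the summed family among genes whose mean reached 2 CPM. Cell type markers were hepatocyte, epithelial, mesenchymal, stellate, endothelial, macrophage and leukocyte, and cholangiocyte lists. The members and lists were chosen with earlier results of these data known.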

Additional observations from a re-analysis of the deposited data

How the results depend on the processing

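Between untreated lines, MT2A, MT1E and the summed family were called in edgeR in all 12 fits that each left out 1 library, although their size against SNU475 moved by over 1.5 times for MT2A and the sum without its control numbered 2. The number of members called against SNU475 in PLC/PRF/5 was 4 with limma-trend on log2(TPM + 1), against 2. MT1X in PLC/PRF/5 over HLF changed sign on TPM (0.15) and ranged from -0.37 to 0.05 with 1 library left out.

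For lactate in PLC/PRF/5, 1 member (MT2A) was called in place of 0 without the low-count filter, with the replicate block, with the line fitted alone and without both SNU475 libraries numbered 2. For the mean of the lines it was 1 without the filter (edgeR adjusted p = 0.00373), with the replicate block and without those SNU475 libraries (edgeR adjusted p = 0.0274). In SNU475 0 to 1 members were called with 1 library left out, the 1 being MT1X. The summed family's mean change was called with the replicate block (-0.44; edgeR adjusted p = 0.0188). With the block the calls of SLC30A1 in PLC/PRF/5 and in the mean also changed, and no other member's lactate call did. In SNU475 the sum was -0.06 and MT2A -0.10 without both libraries numbered 2. With 1 library left out, log2 fold changes that changed sign ranged in SNU475 from -0.71 to 0.76 for the sum, -0.77 to 0.70 for MT2A, -1.07 to 0.42 for MT1E and -0.24 to 0.09 for SLC30A1, and in HLF from -0.19 to 0.42 for MTF1. MT1F in PLC/PRF/5 ranged from -0.60 to 0.96, and was 0.19 with limma-voom and 0.11 with the block. For the mean of the lines MT1X ranged from -0.19 to 0.24, and was -0.11 without both SNU475 libraries, and MTF1 ranged from -0.05 to 0.16. The causes were not tested.

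Genes called over the whole table moved far more. In HLF edgeR called 0, against 111 without the filter, 42 with DESeq2, 3 with the block, 39 without both SNU475 libraries, 1 on TPM and 1 fitted alone. In SNU475 it called 0, against 414, 274, 46 and, on TPM, 3, and 0 to 1788 with 1 library left out (1788 without the lactate library numbered 1). In PLC/PRF/5 it called 0, against 188, 91, 121, 138 without both SNU475 libraries, 17 on TPM and 569 alone, and 0 to 19. For the mean it called 77, against 922, 947, 1268, 530, 8 on TPM and 16 with limma-voom, and 0 to 1493. For the difference between lines it called 0, against 136, 9, 6 and 2 on TPM, and 0 to 203. Depth limited MT1G and MT1M, with at most 6 counts in any library, and MT1F, with at most 22.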

Other observations

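MT1L, a metallothionein pseudogene row outside the 7 members, was listed at 114 TPM in the HLF lactate library numbered 2 on 1.86 expected counts, with an effective length of 1.03 bases. MT3 had 7 and 2 counts with lactate and 0 and 4 in the control in SNU475, and 0 in the other 8 libraries.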
